A study of Mus musculus with 4 samples.

Results

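The 9 genes described here, B2m, H2-K1, H2-D1, Tap1, Tap2, Tapbp, Psmb8, Psmb9 and Nlrc5, encode the core of the MHC class I antigen presentation pathway. They were chosen by symbol, and all 9 were present among the 27514 genes shared by the gene tables of the series. Their unique molecular identifier (UMI) counts were read in adenoma, crypt, enterocyte, immune and stromal cells from adenomas of the mouse small intestine, profiled by droplet-based single-cell RNA sequencing of transcript 3′ ends. The samples came from 11-week-old mice of the C57BL/6 strain in 2 groups. ApcMin mice had the genotype ApcMin/+;Lef1 +/+, and VApcMinL mice had ApcMin/+;Lef1 fl/fl with the Villin-Cre transgene. All samples thus carried the Apc mutation that starts adenomas, and in VApcMinL the gene of the Wnt pathway transcription factor Lef1 was, by design, deleted in the cells that use the Villin promoter, that is, in the intestinal epithelium and not in immune or stromal cells. Each group had 2 libraries, of which the first replicate was prepared with the version 2 and the second with the version 3 reagents (kit 2 and kit 3 below). Every library pooled several unsorted tumors. Nothing in the labels ties a library to a single animal, so p values measure only the spread between these libraries.

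MHC class I molecules display short peptides from the inside of a cell to CD8+ T cells and natural killer cells. Proteasomes cut the peptides, and in cells exposed to interferon the catalytic subunits encoded by Psmb8 and Psmb9 replace constitutive ones to form the immunoproteasome. The transporter formed by Tap1 and Tap2 carries the peptides into the endoplasmic reticulum, where tapasin (Tapbp) holds the transporter next to an empty class I molecule until a peptide is bound. The molecule itself is a heavy chain, H2-K1 or H2-D1, paired with the invariant light chain beta-2 microglobulin (B2m). NLRC5 (Nlrc5) acts as a transactivator of class I genes, and interferon gamma raises most of this set. In the intestine the pathway is active in epithelium as well as in blood-derived cells, and its loss is a known way for tumor cells to avoid T cells.

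Promoter sequences are shown for B2m, H2-K1, H2-D1 and Tap1, because members of the set vary together across cell classes and because the light chain and the heavy chains share an arrangement of motifs. RefSeq windows from 250 bases before to 50 bases after the start (300 bases, GRCm38.p6) were found for 7 of the 9 members, all except Tap2 and Nlrc5. The 250 bases before the start are printed 5′ to 3′ in the direction of transcription. They lie at chr2:122147437-122147686 on the plus strand for B2m, chr17:34000348-34000597 on the minus strand for H2-K1, chr17:35262844-35263093 on the plus strand for H2-D1 and chr17:34187306-34187555 on the plus strand for Tap1. Capitals mark matches, on either strand, to an interferon-stimulated response element (GAAANNGAA, or its second form GAANNGAAA), an interferon gamma-activated site (TTCNNNGAA), a kappa B site (GGNNNTTCC), the core of a cAMP response element (TGACG) and a CCAAT box (CCAAT, read as ATTGG on the other strand).
B2m: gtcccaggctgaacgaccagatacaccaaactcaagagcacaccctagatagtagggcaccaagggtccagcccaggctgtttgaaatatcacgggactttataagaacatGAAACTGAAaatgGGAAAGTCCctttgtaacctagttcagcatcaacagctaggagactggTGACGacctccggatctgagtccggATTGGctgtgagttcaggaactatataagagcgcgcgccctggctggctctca
H2-K1: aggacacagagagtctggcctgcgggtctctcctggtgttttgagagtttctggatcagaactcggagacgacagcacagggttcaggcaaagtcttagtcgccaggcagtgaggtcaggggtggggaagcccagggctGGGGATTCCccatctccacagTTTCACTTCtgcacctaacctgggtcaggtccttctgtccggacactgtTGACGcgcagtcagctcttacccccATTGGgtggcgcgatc
H2-D1: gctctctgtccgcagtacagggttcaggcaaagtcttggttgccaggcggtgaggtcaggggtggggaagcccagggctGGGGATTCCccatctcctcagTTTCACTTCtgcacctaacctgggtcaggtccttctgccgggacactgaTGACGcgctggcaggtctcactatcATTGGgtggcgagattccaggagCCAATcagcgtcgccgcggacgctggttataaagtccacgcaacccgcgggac
Tap1: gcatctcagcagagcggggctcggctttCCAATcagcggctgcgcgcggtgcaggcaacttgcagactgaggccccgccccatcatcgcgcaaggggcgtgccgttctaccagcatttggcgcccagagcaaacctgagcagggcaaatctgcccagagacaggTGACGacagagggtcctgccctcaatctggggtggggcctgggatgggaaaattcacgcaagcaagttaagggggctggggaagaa

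In the 300-base windows, the response element was found in 1 of 7 members (B2m) against 8.56% of all 32851 RefSeq promoter windows, and its second form, which was chosen after the windows had been read, in 2 of 7 (H2-K1 and H2-D1) against 7.52%. The kappa B letters were found in 3 of 7 members (18.5% of all windows), the TGACG core in 5 of 7 (20.8%), CCAAT in 6 of 7 (37.4%) and the activated site in 1 of 7, Psmb8 (8.3%). In B2m, H2-K1 and H2-D1 a TGACG was followed by an ATTGG with 20 bases between them. The same pair at the same distance was present in 31 of the 32851 windows (0.0944%), a spacing looked for after these windows had been seen. From the kappa B match to the first ATTGG, H2-K1 and H2-D1 were identical at 89 of 100 positions. The windows of Tap1 and Psmb9 share 275 positions on opposite strands, so the sequence printed for Tap1 is also most of the window of Psmb9. A match in letters is a description and not evidence of binding.

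In GENCODE M21 on GRCm38, 7 of the 9 members lie on chromosome 17. H2-K1 (chr17:33996017-34000347, minus strand) and H2-D1 (chr17:35262730-35267499, plus strand) lie on either side of a run formed by Psmb9 (chr17:34181987-34187764, minus strand), Tap1 (chr17:34187553-34197225, plus strand), Psmb8 (chr17:34197721-34201454, plus strand) and Tap2 (chr17:34203527-34216321, plus strand). Tapbp (chr17:33915899-33929292, plus strand) lies before H2-K1 in chromosome order, whereas B2m (chr2:122147686-122153083, plus strand) and Nlrc5 (chr8:94434356-94527272, plus strand) are on other chromosomes. Several members overlap other annotated genes. Tapbp shares 3422 bases with Zbtb22 on the same strand, Tap1 and Psmb9 share 212 bases on opposite strands, B2m lies within the opposite-strand gene Patl2, and Tap2 and Psmb8 overlap the antisense gene Gm20496. The sources used here do not state the strand setting of the counting. H2-K1 and H2-D1 have relatives of similar sequence among the other class I genes, such as the H2-Q genes. Counts of H2-K1 and H2-D1 are uncertain to the extent that reads of these relatives could not be told apart.

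The libraries held from 44660305 to 128247396 UMIs, and 12400 barcodes had at least 1000 UMIs and at most 20% mitochondrial UMIs. Gates on fixed marker lists, none of which held a member, gave 3938 adenoma cells (397 to 2301 per library), 367 crypt cells (66 to 117), 3069 enterocytes (372 to 1060), 1496 immune cells (162 to 554) and 439 stromal cells (25 to 235). Levels are in CPM, that is, UMIs of a gene per 1000000 UMIs of the class, and series of 4 values give kit 2 before kit 3 and, within each kit, ApcMin before VApcMinL. Lef1 measured 8.5, 25.8, 31.8 and 21.1 CPM in adenoma cells, so the kit 2 pair went against its labels; 3′ counting can fall outside a deleted part, and the values therefore do not check the deletion. The labels call all animals male, but the libraries labelled VApcMinL held 31218 and 29717 Xist UMIs, against 9 and 12 in those labelled ApcMin, and the library labelled VApcMinL replicate 2 also held 7998 UMIs of Y-linked genes. Notum and Olfm4 are on the marker lists of the adenoma and crypt gates, so their levels describe the gated cells and do not check the gates. Notum, a Wnt target of adenoma cells, ranged from 88.3 to 379.5 CPM in adenoma cells and from 5.15 to 12.4 in enterocytes. Olfm4, a crypt stem cell gene, measured 9.96, 3.95, 163.6 and 490.7 in crypt cells, so that the kit 2 crypt cells had little of it. The crypt marker list summed to 350.7, 282.6, 358.9 and 867.4 CPM in crypt cells and to 196.1, 236.1, 360.7 and 293.6 in adenoma cells, and in ApcMin replicate 2 the adenoma sum was thus as high as the crypt sum. The name crypt cells therefore stands for the gate, that is, epithelial cells with crypt markers, no adenoma markers and under 100 enterocyte-marker UMIs per 10000, and not for crypt stem cells. Between the kit 2 libraries 18 barcodes were shared, and 1 was shared between ApcMin replicate 1 and VApcMinL replicate 2. Means have SDs over the 4 libraries of both genotypes and both kits.

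The light chain B2m was lowest in adenoma cells of every library, and higher in crypt cells, enterocytes and immune cells in that order. In adenoma cells B2m measured 128, 234, 144 and 52.4 CPM (139 ± 74.4, SD, n = 4). In crypt cells it measured 503, 556, 342 and 206 (402 ± 159, n = 4), and in enterocytes 1295, 2022, 1056 and 657 (1257 ± 573.6, n = 4). Within each library the order adenoma, crypt, enterocyte was the same, although the highest adenoma library was above the lowest crypt library. Immune cells held 3720, 4369, 2149 and 1628 CPM (2966 ± 1290.0, n = 4), and stromal cells 2458, 2854, 1028 and 502 (1711 ± 1124, n = 4). Stromal cells overlapped both enterocytes and immune cells. The kit 3 pair was lower than the kit 2 pair in crypt, enterocyte, immune and stromal cells. Counted per cell, adenoma cells carried from 1.56 to 5.77 B2m UMIs in the mean of a library, crypt cells from 4.41 to 13.1 and enterocytes from 11.8 to 27.9.

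The heavy chains followed another order, with adenoma and crypt cells at nearly the same level. H2-K1 measured 177, 229, 365 and 234 CPM in adenoma cells and 170.4, 207, 280.2 and 201 in crypt cells. The means were 251 ± 80.1 and 215 ± 46.6 (SD, n = 4), and the libraries of both classes overlapped. Enterocytes held 477, 672, 856 and 566 CPM of H2-K1, and immune cells 665, 1031, 1317 and 1075. H2-D1 measured 246, 340.3, 332 and 236 in adenoma cells and 209, 259, 302 and 195 in crypt cells. For H2-D1 enterocytes stood only a little higher, at 344, 492, 509 and 375, whereas immune cells (1025, 1413, 1113 and 959.7) and stromal cells (1289, 1485, 956 and 709) were above every epithelial value. Stromal H2-K1, at 731, 848, 771 and 472, overlapped the range of enterocytes.

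**Figure D1:**
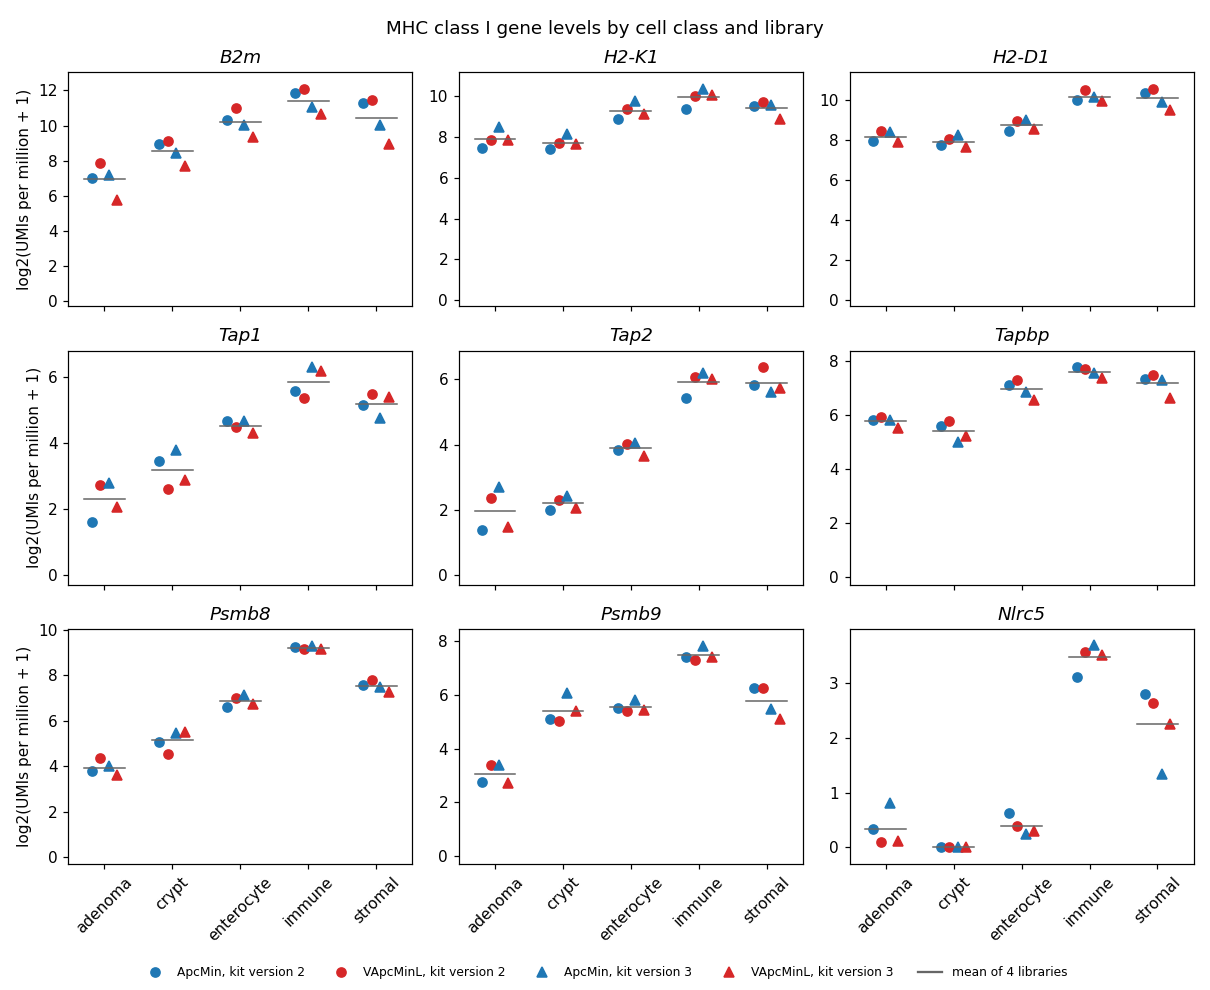
Levels of the 9 members by cell class, as log2 of CPM plus 1 (vertical axis, from about 0), with 1 point per library (blue, ApcMin; red, VApcMinL; circles, kit 2; triangles, kit 3) and a line at the mean of the 4 libraries. B2m, Psmb8 and Psmb9 step down from crypt to adenoma cells, H2-K1, H2-D1 and Tapbp do not, and Nlrc5 is at 0 in all crypt sums.

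The immunoproteasome subunits had their lowest values in adenoma cells. Psmb8 measured 12.6, 19.3, 15.3 and 11.1 CPM in adenoma cells, 32.9, 22.6, 42.7 and 44.0 in crypt cells and 95.1, 129, 141 and 105 in enterocytes. These 3 classes did not overlap. Immune cells held 599, 573, 624 and 580.3, the narrowest spread of any member in any class relative to its mean (594 ± 22.9, SD, n = 4). Psmb9 measured 5.75, 9.47, 9.43 and 5.64 in adenoma cells against 33.4, 31.6, 66.4 and 41.2 in crypt cells, again without overlap. Unlike Psmb8, Psmb9 was at a similar level in enterocytes (44.5, 41.2, 54.8 and 42.3) and crypt cells, and the 2 classes overlapped.

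The peptide transporter was scarce in the epithelium. Tap1 measured 2.07, 5.73, 5.91 and 3.21 CPM in adenoma cells, 9.96, 5.08, 13.0 and 6.40 in crypt cells and 24.4, 21.6, 24.8 and 18.8 in enterocytes. In VApcMinL replicate 1 the adenoma value was above the crypt value, whereas in the other 3 libraries it was below. Tap2 measured 1.61, 4.11, 5.53 and 1.78 in adenoma cells and 2.99, 3.95, 4.35 and 3.20 in crypt cells, with 2 libraries in each direction. Tapasin was steadier, with Tapbp at 55.1, 60.7, 56.3 and 45.2 in adenoma cells and 47.8, 54.7, 31.2 and 36.8 in crypt cells. Tapbp was higher in adenoma than in crypt cells of all 4 libraries, by 1.11 to 1.80 times, but the ranges overlapped. In immune cells Tap1 ranged from 40.7 to 78.4, Tap2 from 41.6 to 72.4 and Tapbp from 166 to 218 CPM.

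The transactivator Nlrc5 was close to the limit of detection in all epithelial classes. It measured 0.27, 0.073, 0.75 and 0.087 CPM in adenoma cells and 0.54, 0.30, 0.18 and 0.23 in enterocytes. In crypt cells it had 0 UMIs in all 4 libraries, and a count of 0 allows up to 1.49, 1.69, 1.19 and 1.20 CPM (3 counts of each library's total, counting error only). These limits are above the values in the other epithelial classes, so a difference was not detectable at this depth. Immune cells held 7.64, 10.9, 11.9 and 10.5, and stromal cells 5.95, 5.18, 1.54 and 3.75.

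Within the immune class, gated T cells (656 in all), plasma cells (259) and myeloid cells (313) had members at different levels. B2m was highest in plasma cells, at 4857, 9934, 4125 and 2806 CPM, against 3297, 3514, 2499 and 1561 in T cells. Both heavy chains had the opposite order. H2-D1 measured 1892, 2043, 1909 and 1300.0 in T cells and 466, 694, 810.4 and 426 in plasma cells, and H2-K1 ranged from 1252 to 2289 in T cells and from 393 to 1313 in plasma cells. Nlrc5 measured 27.5, 16.9, 35.0 and 27.0 in T cells, above every value in plasma and myeloid cells. The share of plasma cells in the immune class differed between libraries, with 167 of 554, 44 of 460, 20 of 162 and 28 of 320 cells.

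Adenoma cells were then compared with the cells gated on crypt markers and without adenoma markers. B2m, both immunoproteasome subunits and Tap1 were lower in adenoma cells, and the heavy chains and tapasin were not called. The differences were smaller among cells with few enterocyte markers, as given below. Of the 8 members tested (Nlrc5 did not pass the filter on low counts), 4 were lower, where 18.6% of all 12603 genes were called lower, and 0 were higher, where 25.2% of all genes were called higher. Calls are at an adjusted p of 0.05 in the quasi-likelihood test of edgeR on sums per library and class, with the library as a block. Psmb9 changed most, with a fitted log2 change of −2.65 (SE 0.19, adjusted p = 1.06e-05). B2m fell by 1.73 on the log2 scale (SE 0.13, adjusted p = 1.4e-05), with CPM between 0.25 and 0.42 of the crypt level within the libraries. Psmb8 followed with −1.45 (SE 0.23, adjusted p = 0.0009). Tap1 had −1.203 (SE 0.34, adjusted p = 0.018), a call that was lost without ApcMin replicate 1 (−0.92, adjusted p = 0.069) or without ApcMin replicate 2 (−1.16, adjusted p = 0.055).

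For the members that were not called, the fitted intervals were narrow for the heavy chains. H2-K1 had a log2 change of 0.09 (95% interval −0.10 to 0.27) and H2-D1 of 0.14 (−0.04 to 0.33). Tapbp had 0.26 (−0.03 to 0.54), and Tap2 had −0.38 with a wide interval of −1.14 to 0.39. Tap2 passed the filter on low counts through the adenoma sums only. The scaling mattered for small differences. The median of all genes was 0.09 with TMM scaling and 0.20 when total UMIs were used instead, and H2-D1 (0.26, adjusted p = 0.018) and Tapbp (0.37, adjusted p = 0.043) were then called higher. All genes called split into 3176 higher and 2345 lower with TMM, and into 3992 and 1886 with total UMIs. Stricter gates doubled the lineage levels, the enterocyte minimum and the numbers of adenoma or crypt markers required, with the other limits unchanged. They left 12 crypt cells in ApcMin replicate 1 and 15 in VApcMinL replicate 1. With them Tapbp (0.68) and H2-D1 (0.44) were also called higher, and Tap1 was not called.

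Crypt cells carried more enterocyte RNA than adenoma cells. The 12 enterocyte markers, all detected, summed to 2630 to 4215 CPM in crypt cells and 673 to 1770 in adenoma cells. When both classes were restricted to cells with fewer than 20 enterocyte-marker UMIs per 10000, an alternative chosen after the data had been seen, 3643 adenoma and 110 crypt cells (9 to 56 per library) remained, with marker sums of 451 to 1357 and 1044 to 1605. B2m then had a log2 change of −1.28 (SE 0.14, adjusted p = 4.97e-08) and Psmb9 of −1.35 (SE 0.35, adjusted p = 0.0065). Psmb8 (−0.43, adjusted p = 0.44) and Tap1 (−0.45, adjusted p = 0.70) were not called, so 2 of 8 members were lower and 0 higher. H2-K1 (0.05) and H2-D1 (0.17) stayed near 0.

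RNA of other cells was present in both classes, at levels that differed between marker lists and libraries. The 8 pan-immune markers were all detected, at a sum of 13.4 to 39.7 CPM in adenoma cells and 4.74 to 44.6 in crypt cells. The 7 endothelial markers summed to 82.5 to 188 in adenoma and 12.4 to 30.0 in crypt cells. The 4 plasma cell markers summed to 7.67 to 523.9 in adenoma and 7.11 to 508.6 in crypt cells, with the highest sums in ApcMin replicate 1. In that library the red blood cell markers summed to 599.6 in adenoma and 573.3 in crypt cells. Barcodes of 10 to 100 UMIs, which hold mainly free RNA, contained B2m at 828 to 1636 and Psmb8 at 172 to 194 CPM, above the levels in adenoma cells. The part of this RNA in the class differences was not tested. Median depth was 18650 to 34350 UMIs per cell in adenoma and 16950 to 33790 in crypt cells.

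When every cell was thinned to 1000 UMIs, B2m was detected in 13.9% ± 6.67 of adenoma cells (SD, n = 4), 32.5% ± 10.3 of crypt cells and 67.2% ± 11.4 of enterocytes. Without thinning the mean shares over the libraries were 83.4%, 95.3% and 98.0%. In adenoma cells the unthinned shares were 87.3%, 90.1%, 90.7% and 65.6% by library, with the lowest in the library labelled VApcMinL replicate 2. By library the thinned share in adenoma cells was 13.2% (exact 95% interval 10.6 to 16.1), 21.9% (18.7 to 25.3), 14.9% (11.5 to 18.7) and 5.65% (4.74 to 6.67). The last value, of the library labelled VApcMinL replicate 2, lay below the other 3 intervals. These intervals cover counting error only and not the spread between animals or tumors. B2m is made by nearly all nucleated cells, and none of the gated classes is known to lack it as a background. Over the 9 members together, the median cell held 5.61 to 8.53 UMIs per 10000 in adenoma, 7.15 to 10.9 in crypt, 19.4 to 35.9 in enterocyte and 44.1 to 75.3 in immune cells. In adenoma cells the 1 in 10 cells with the highest sums lay above 9.43 to 17.0 UMIs per 10000, depending on the library, and the 1 in 10 with the lowest below 3.13 to 4.53.

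Enterocytes are the mature absorptive cells that crypt cells give rise to. The 7 members that also passed the filter in crypt sums were all higher in enterocytes (36.7% of 10575 genes were called higher and 34.4% lower). Among these 7, Psmb8 (2.11), B2m (2.02), H2-K1 (1.97), Tapbp (1.96) and Tap1 (1.77) had the largest fitted log2 changes, and H2-D1 had 1.23 (SE 0.10). Tap2 was called higher as well (2.33, SE 0.20, adjusted p = 2.29e-06), but passed the filter through the enterocyte sums only. Psmb9 changed least, with 0.50 (SE 0.13, adjusted p = 0.0053). The median of all genes was 0.03 with TMM and −0.37 with total UMIs, and calls split into 3883 higher and 3642 lower against 2646 and 5008. The call of Psmb9 was lost with total UMIs (0.11) and with a mitochondrial limit of 10% (0.09), under which the median of the 8 members was 1.30 instead of 1.97. Median mitochondrial shares were 11.0% to 13.4% in enterocytes and 5.13% to 6.98% in crypt cells, and their part in the differences was not tested.

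Set against enterocytes, adenoma cells were lower for all 8 members tested (35.1% of 13474 genes were called lower and 39.8% higher). B2m had the largest fitted log2 change, −3.91 (SE 0.17, adjusted p = 2.61e-07), with CPM at 0.080 to 0.136 of the enterocyte level in each library. Psmb8 (−3.69), Psmb9 (−3.30), Tap1 (−3.14) and Tap2 (−2.90) followed, and H2-K1 (−2.04), Tapbp (−1.86) and H2-D1 (−1.24) changed less. None of these 8 members overlapped between the classes, but the share of all genes without overlap was not computed. H2-D1 came closest, with CPM at 0.63 to 0.72 of the enterocyte level. The median of all genes moved from 0.12 with TMM to 0.80 with total UMIs, and calls split into 5365 higher and 4724 lower against 7804 and 2864. The ratios within libraries are of CPM and so follow the total UMIs, and with total UMIs the fitted changes were −3.25 for B2m and −0.58 for H2-D1, with all 8 members still called lower. With a mitochondrial limit of 10% B2m had −3.10. The adenoma cells were compared with crypt cells and with enterocytes through the same adenoma sums, so the comparisons are not independent.

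**Figure D2:**
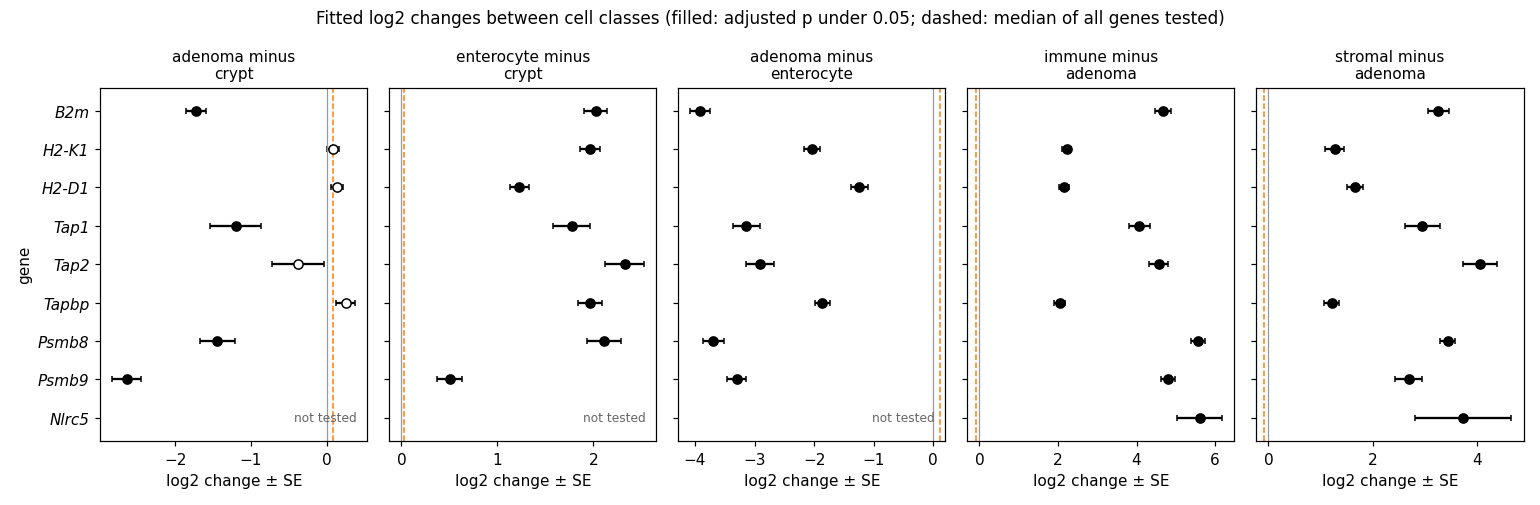
Fitted log2 changes with SE (horizontal axis, log2; scales differ between panels) for each member in 5 comparisons of cell classes; filled points have an adjusted p under 0.05 and the dashed line is the median of all genes tested. In adenoma against crypt cells only Psmb9, B2m, Psmb8 and Tap1 are filled, all lower in adenoma cells, whereas every member tested is filled in the other 4 panels.

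Immune and stromal cells served as a reference for levels of the pathway in neighboring non-epithelial cells. All 9 members were higher in immune than in adenoma cells (28% of 13662 genes were called higher and 32.9% lower). Among the 8 members that also passed the filter in adenoma sums, the largest fitted log2 changes were those of Psmb8 (5.57, SE 0.17) and Psmb9 (4.79, SE 0.18), followed by B2m (4.68), Tap2 (4.56) and Tap1 (4.07). H2-K1 (2.22), H2-D1 (2.16) and Tapbp (2.04) had the smallest changes. Nlrc5 entered the test through immune cells only, and its fitted change of 5.60 (SE 0.58) rests on 4, 1, 12 and 6 UMIs in the adenoma sums and ranged from 5.08 without VApcMinL replicate 2 to 6.35 without ApcMin replicate 2. In T cells alone, a restriction chosen after the data had been seen, the 8 members that passed in adenoma sums were again called higher. Nlrc5 was called higher there too, with the same limit. These 8 members were also higher in stromal than in adenoma cells (25.4% of 13810 genes were called higher and 27.7% lower), from 1.21 for Tapbp and 1.27 for H2-K1 to 4.06 for Tap2. Nlrc5 was called higher as well, but passed the filter there through the stromal sums only. The stromal value of Nlrc5 (3.74) likewise ranged from 3.24 without VApcMinL replicate 1 to 4.79 without ApcMin replicate 2. The stromal sum of VApcMinL replicate 2 rests on 25 cells. By total UMIs calls in this comparison split into 4195 higher and 2892 lower, against 3507 and 3824 with TMM.

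VApcMinL was compared with ApcMin within each class, with the kit as a block, to ask whether Lef1 deletion goes with a change in the pathway. These fits rest on the labels, although Lef1 in the kit 2 pair went against them, and Xist was high in both libraries labelled VApcMinL and near 0 in both labelled ApcMin, so that genotype and the presence of Xist-expressing animals cannot be told apart. In adenoma cells 0 of 8 members were called in either direction, as were 0 of 13090 genes (0% higher and 0% lower); 43 genes had an unadjusted p under 0.05, and DESeq2 called 2 genes. The fitted log2 changes of the members ranged from −0.30 (B2m, 95% interval −2.07 to 1.47) to 0.25 (Tap1). For H2-K1 the interval was −0.95 to 0.67 and for H2-D1 −0.80 to 0.77. The paper reports that most markers of the adenoma gate, Notum among them, were lower after Lef1 deletion in adenoma cells of another model. The gates may thus select different adenoma and crypt cells in the 2 genotypes, which was not tested. Counts were 0 of 7 in crypt cells (0.0209% of genes called higher and 0% lower), 0 of 8 in enterocytes (0.00895% and 0%), 0 of 9 in immune cells (0.0109% and 0%) and 0 of 8 in stromal cells (0.0365% and 0.122%). The fitted changes there ranged from −1.02 in crypt cells to 0.39 in stromal cells. A test of the difference between the genotype effects in adenoma and in immune cells called 0 of 9 members and 0 of 13662 genes (0% in each direction), with 361 genes at an unadjusted p under 0.05 and 8 called by DESeq2.

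The 2 kit pairs went in opposite directions in adenoma cells. In the kit 2 pair all 8 members were higher in the library labelled VApcMinL, and in the kit 3 pair all 8 were lower, a pattern that 32.8% of all genes tested shared. B2m differed by 0.78 in the kit 2 pair and by −1.38 in the kit 3 pair (log2, VApcMinL minus ApcMin). Tap2 had 1.23 and −1.52, Tap1 had 1.35 and −0.79, and Tapbp differed least with 0.05 and −0.23. The heavy chains had 0.28 and −0.56 (H2-K1) and 0.38 and −0.41 (H2-D1). The same up-and-down pattern was found in 6 of 8 members in enterocytes (33.5% of all genes), 5 of 9 in immune cells (24.1%), 5 of 8 in stromal cells (26.0%) and 3 of 7 in crypt cells (28.1%). Kit, animals and tumors cannot be told apart as the source of the difference between the pairs. Lef1 in adenoma cells had the same signs, 1.50 and −0.51.

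**Figure D3:**
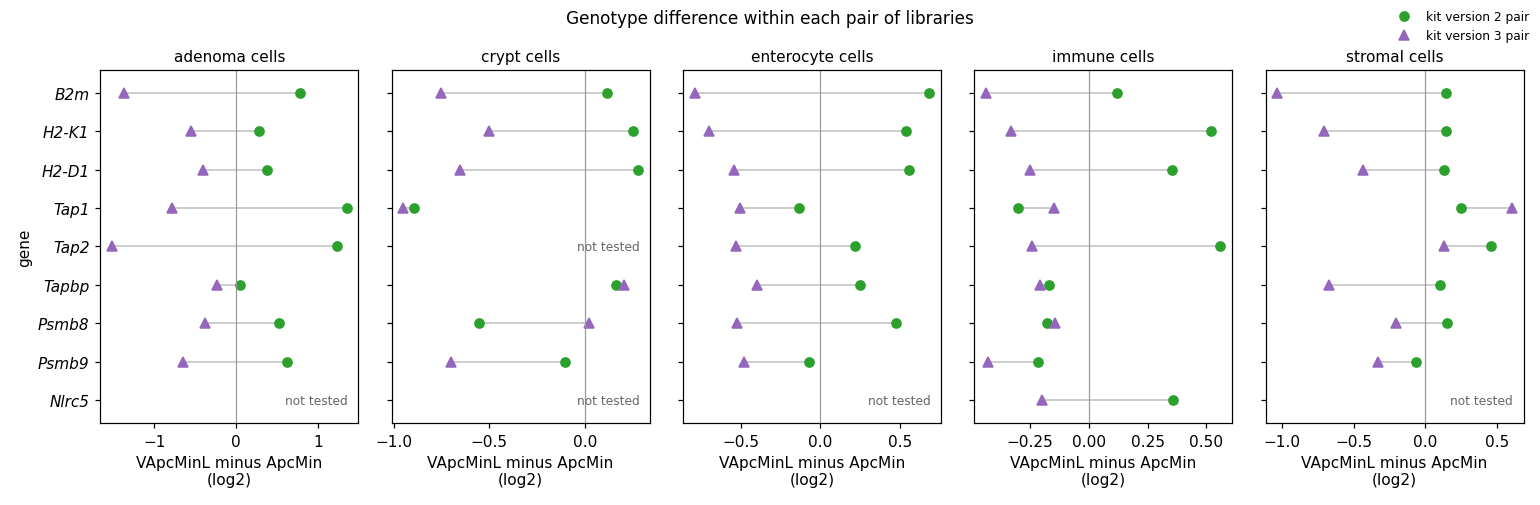
Log2 difference of each member between the library labelled VApcMinL and the library labelled ApcMin (horizontal axis, log2; scales differ between panels) within the kit 2 pair (green circles) and the kit 3 pair (purple triangles), by cell class. In adenoma cells all circles lie right of 0 and all triangles left of 0.

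Across the 20 sums of 5 classes and 4 libraries, the members varied together. Pearson correlations between pairs of members ranged from 0.67 (Tapbp and Psmb9) to 0.96 (H2-D1 and Tap2), given as a description, since sums of a class and of a library share cells, kit and depth. Of 6226 genes with a mean of at least 20 CPM, those outside the set most like the mean pattern of the members included, by Pearson correlation of log2 values, Trim30a (0.976), Sp100 (0.975), H2-T22 (0.953) and Lyn (0.948). Trim30a and Sp100 are known as interferon-induced genes, H2-T22 is a nonclassical class I gene and Lyn encodes a tyrosine kinase of blood cells.

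The rest of the pathway was read from 7 lists. In adenoma against crypt cells, where 25.2% of all genes were called higher and 18.6% lower, 4 of 8 genes of peptide supply, constitutive and inducible, were lower and 0 higher. Each list was also read among the cells with few enterocyte markers described above, where 10% of 12351 genes were called higher and 7.34% lower, and 3 of 8 genes of this list were then lower and 0 higher. The regulators of the proteasome Psme1 (−0.92, SE 0.10) and Psme2 (−1.05, SE 0.10) were lower, and the constitutive subunits Psmb5 (0.12) and Psmb6 (−0.10), which Psmb8 and Psmb9 replace, were not called. Psmb10, the third inducible catalytic subunit and named after its values were seen, measured 49.4, 60.1, 51.0 and 52.7 CPM in adenoma cells against 152, 159, 225 and 178 in crypt cells, a fitted log2 change of −1.85 (SE 0.13, adjusted p = 8.46e-06). Among cells with few enterocyte markers Psmb10 had −1.17 (SE 0.16), Psme1 −0.45 (adjusted p = 0.011) and Psme2 −0.57 (adjusted p = 0.00071), all still called, whereas Psmb8 was not. Against enterocytes, 4 of 8 genes of this list were lower in adenoma cells and 2 higher, among them Psmb5 (0.64), beside 35.1% lower and 39.8% higher over all genes.

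Among class I chains and class I-like genes, 3 of 13 tested were higher and 4 lower in adenoma than in crypt cells, beside 25.2% higher and 18.6% lower over all genes. Fcgrt, the Fc receptor that carries IgG across epithelia and binds the B2m light chain, measured 7.89, 20.1, 7.10 and 6.01 CPM in adenoma cells against 60.3, 64.9, 62.5 and 56.0 in crypt cells (log2 change −2.86, SE 0.23). H2-Q2 was lower, at −1.28 (SE 0.16), while H2-T23, a ligand of natural killer cell receptors, was higher by 0.53 (SE 0.16). H2-T3, named after its values were seen, had −3.42 (SE 0.24). With few enterocyte markers 0 of 12 were higher and 3 lower. Fcgrt (−1.80, adjusted p = 0.00015) and H2-T3 (−2.38, adjusted p = 0.0029) kept their calls, and H2-Q2 (−0.12, adjusted p = 0.88) and H2-T23 (0.69, adjusted p = 0.082) lost theirs. Enterocytes were higher than crypt cells in 7 of 10 genes and lower in 2, beside 36.7% higher and 34.4% lower over all genes. H2-Q2 rose from 11.2 to 28.8 CPM in crypt cells to 255 to 673 in enterocytes (4.74, SE 0.13). H2-Q7 was not called between adenoma cells and the other epithelial classes and was higher in immune (6.74) and stromal cells (5.10) than in adenoma cells. In those comparisons 12 of 16 and 11 of 14 genes tested of this list were higher than in adenoma cells, beside 28% and 25.4% of all genes, and 0 were lower, beside 32.9% and 27.7%. Only 13 genes of the list passed the filter in adenoma sums and 8 in crypt sums. Others entered a comparison through the class where they were higher or that held more UMIs. All counts of this list, those with crypt cells included, are therefore given with no reading of the list.

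Of the loading factors of the endoplasmic reticulum, 2 of 5 were lower in adenoma than in crypt cells and 0 higher (18.6% and 25.2% over all genes), with Canx at −0.47 (SE 0.08), and Calr (0.17), Hspa5 (0.18) and Pdia3 (0.20), chaperones that serve many other proteins too, were not called. With few enterocyte markers 0 of 5 were called, and Canx had −0.26 (adjusted p = 0.13). Of 15 regulators 3 were higher and 4 lower in adenoma cells, shares near those of all genes (25.2% higher and 18.6% lower). The interferon regulatory factors Irf8 (−1.60, SE 0.15), Irf1 (−1.08, SE 0.12) and Irf2 (−0.81, SE 0.13) were lower and Nfkb1 (0.01) was not called. Irf1, an activator of class I promoters, measured 16.3, 17.1, 18.5 and 14.2 CPM in adenoma cells and 33.9, 28.8, 35.6 and 30.0 in crypt cells. With few enterocyte markers 0 regulators were higher and 1 lower, Irf8 (−1.19, SE 0.17), and Irf1 (−0.53, adjusted p = 0.20) and Irf2 (−0.37, adjusted p = 0.17) lost their calls. The interferon gamma receptor chains went in different directions, with Ifngr1 at −1.35 (SE 0.12) and Ifngr2 at 0.32 (SE 0.10). In crypt sums 13 of the regulators and 7 genes of the list of interferon ligands and receptors passed the filter. In the latter list 3 of 8 were higher and 1 lower, beside 25.2% and 18.6% over all genes. With few enterocyte markers only Ifngr1 of these 8 was called (−1.27, SE 0.16), and Ifngr2 had 0.36 (adjusted p = 0.11).

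Of the 20 interferon response genes listed, 13 passed the filter on low counts in adenoma against crypt cells. Of these 5 were higher and 1 lower, beside 25.2% and 18.6% over all genes. In the genotype fits 13 passed in adenoma sums but 5 in the smaller crypt sums, so several entered through the class where they were higher or that held more UMIs, and the counts are given with no reading of the list. Isg15 measured 4.08, 17.3, 25.1 and 6.21 CPM in adenoma cells against 3.49, 5.08, 7.51 and 1.60 in crypt cells (1.40, SE 0.27, adjusted p = 0.0025). The guanylate-binding protein gene Gbp7 had 1.49 (SE 0.47), and Bst2 (0.33) and Cd74 (−0.14), the chaperone of MHC class II, were not called. With few enterocyte markers 3 of 12 were higher and 0 lower, beside 10% and 7.34% over all genes. Isg15 then had 4.53 (SE 0.81, adjusted p = 0.00012) and Gbp7 1.56 (adjusted p = 0.22). The other genes called, named after their values were seen, were Irgm2 (8.79, SE 2.29) and Ifit1 (2.63, SE 0.71). These values rest on 110 crypt cells, 9 to 56 per library. The UMIs of these genes in the restricted crypt sums are not given here, and few UMIs make such sizes depend on the prior count. Against enterocytes 2 of 17 were higher and 8 lower in adenoma cells (39.8% and 35.1% over all genes), and Isg15 had −3.49 (SE 0.36). In immune cells 18 of 20 genes of this list were higher than in adenoma cells and 0 lower (28% and 32.9% over all genes) while 13 of the 20 passed the filter in adenoma sums. Of the 9 receptors for class I on lymphocytes, 2 passed the filter in adenoma sums, and 0 of these 2 were called between adenoma and crypt cells (Cd8a 1.02, Klrd1 0.01). In the genotype comparisons and in the test of their difference, 0 genes of the 7 lists were called.

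**Figure D4:**
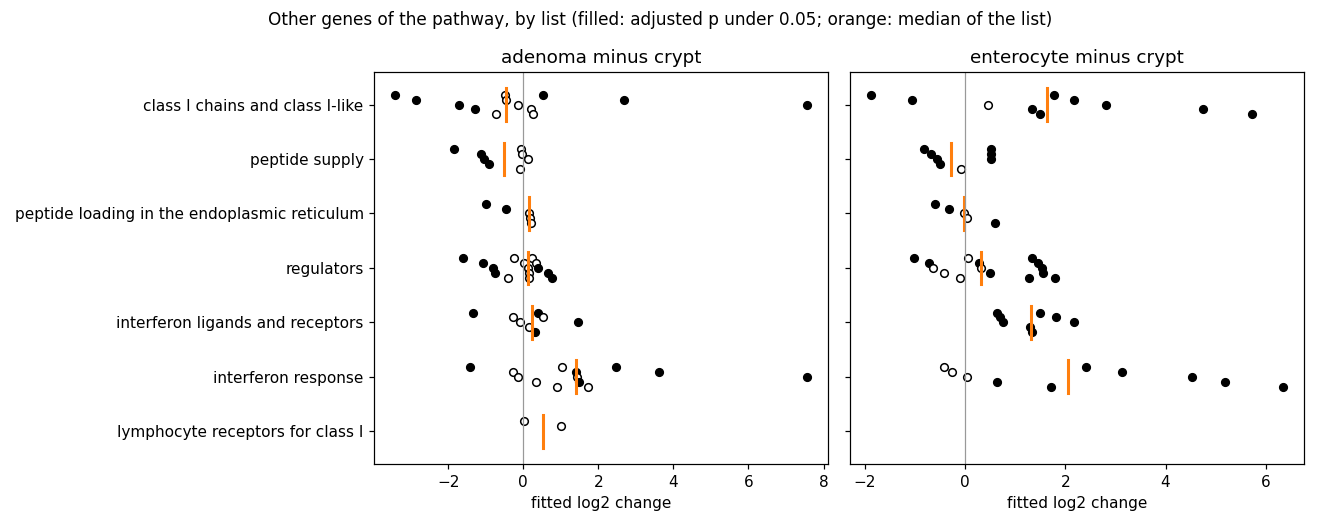
Fitted log2 changes (horizontal axis, log2; scales differ between panels) of the tested genes of the 7 lists in adenoma against crypt cells and in enterocytes against crypt cells; filled points have an adjusted p under 0.05 and the orange line is the median of the genes of a list that passed the filter on low counts. The 4 peptide supply genes that are filled on the left all lie below 0, and the rightmost points there, Mr1 and Gbp3, rest on 0 UMIs in crypt cells, so that their position depends on the prior count.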

How the data were processed

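Per the labels, unsorted tumors were profiled with the 10x Genomics 3′ platform. Each molecule carries a unique molecular identifier (UMI), and the authors deposited unnormalised UMI counts by gene for all barcodes, empty droplets included. The submitters' processing notes name Cell Ranger 2.1.1, Seurat 3.1.1 and mm10 (GRCm38). The headers of the kit 3 matrices name Cell Ranger 3.1.0 and list 31053 genes against 27998 in kit 2. Only the 27514 genes shared by all tables were used, and the other genes held 0.192% to 0.568% of the UMIs of a library.

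Barcodes with at least 1000 UMIs and at most 20% mitochondrial UMIs were gated on UMIs per 10000 of fixed marker lists. A lineage needed 20 per 10000 and 3 genes (plasma cells 500), and barcodes of several lineages were left out. Goblet, Paneth, enteroendocrine and tuft cells were left out too. Enterocytes had at least 200 enterocyte-marker UMIs per 10000, and adenoma and crypt cells under 100, with at least 2 adenoma markers, or none and at least 2 crypt markers. The adenoma markers were Notum, Wif1, Nkd1, Prox1, Dkk2, Dkk3, Apcdd1 and Axin2. These thresholds were set after the distributions had been seen. No doublets were removed in the reported values, and Scrublet (scanpy 1.11.5) was an alternative.

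UMIs were summed per library and class, since cells are not replicates, and tested with edgeR 4.0.16 in R 4.3.3 (quasi-likelihood test, TMM scaling, genes kept at a minimum count of 10, default prior count, Benjamini-Hochberg adjustment over all genes tested, calls at 0.05). Differences within kit pairs, and the deviations of libraries given below, were of TMM-scaled log2 CPM with a prior count of 2. Genotype tests had the kit as a block, class tests the library, and the test of their difference had library, class, class by kit and class by genotype. The labels tie the replicate number to the kit, and deviations of libraries of a kit correlated at 0.20 in adenoma, 0.45 in crypt, 0.40 in enterocyte, 0.44 in immune and 0.54 in stromal sums. The code was tested on simulated counts. Shares were computed after thinning each cell to 1000 UMIs (no gated cell was shallower), with exact 95% intervals that cover counting error only. A permutation test of 2 against 2 libraries cannot go below 0.333, so none is reported. Positions are from GENCODE M21 and promoters from RefSeq.

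Named genes are the members, Lef1, for each pathway list the 4 genes with the highest summed level, and the 5 other genes most like the members, of which 1 is not reported here. The members, lists and tests were chosen with earlier results of these data known. DESeq2 1.42.0, other scalings, filters and gates, and leaving out libraries were tried as alternatives.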

Additional observations from a re-analysis of the deposited data

How the results depend on the processing

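Of 159 alternative counts of members called, 156 were within 1.5 times the reported count, and 0 members were called in all 86 alternatives of the genotype comparisons. In adenoma against crypt cells 2 members were called when cells were thinned to 1000 UMIs (5 tested) and 2 among cells with few enterocyte markers, and in enterocytes against crypt cells 5 were called after thinning (6 tested). Of 607 class changes of single members under alternatives, 592 kept their direction and their side of the threshold, 10 lost a call, 4 gained one and 1 reversed (Tap2 in adenoma against crypt cells, 0.42 with stricter gates). Beyond the changes of calls given in the report, Tap1 in adenoma against crypt cells lost its call without the library block (−1.18) and with stricter gates (−1.23), and Psmb9 in enterocytes against crypt cells lost it after thinning (0.31) and without the library block (0.44). The cause was not tested.

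Signs of genotype changes in adenoma cells were not stable, reversing in 22 of 109 alternatives. Without the replicate block B2m was 0.10, Psmb9 0.017 and H2-D1 0.014. Psmb9 was 0.029 with the mitochondrial limit of 10% and 0.036 with stricter gates, Psmb8 −0.098 after thinning, and H2-D1 0.0059 without the filter on low counts. Leaving out a library with the kit block has no residual degrees of freedom and was not run. Without the block, an alternative added after the data had been seen, in which a lone library is assumed to vary like the others, leaving out each library gave B2m −1.45 to 0.83 (0.133 without ApcMin replicate 1, 0.0543 without ApcMin replicate 2), Tapbp −0.38 to 0.16 (0.033 without ApcMin replicate 1), H2-K1 −0.54 to 0.25, Psmb9 −0.48 to 0.39 (0.26 without ApcMin replicate 2), Tap1 −0.33 to 0.97 (−0.289 without ApcMin replicate 1), Psmb8 −0.41 to 0.52, Tap2 −1.01 to 0.74 and H2-D1 −0.35 to 0.30.

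Counts over all genes moved more than those of the members. Without the replicate block 0 genes were called in crypt, enterocyte, immune and stromal cells. Without the filter on low counts 22, 37, 115 and 62 genes were called there, against 2, 1, 1 and 13, and leaving out a library without the block gave 29 to 42 in immune cells, 0 to 4 in crypt cells, 0 to 6 in enterocytes and 1 to 6 in stromal cells. In the test of the difference between adenoma and immune cells, 84 genes were called without ApcMin replicate 2 and 18 with a higher floor of UMIs per cell. In adenoma against crypt cells 5521 genes were called, 3221 with stricter gates, 3324 without the library block, 2142 with few enterocyte markers and 947 after thinning. In the other class comparisons, 7525, 10089, 8323 and 7331 became 2599, 5650, 4151 and 2865 after thinning. Without thinning B2m was detected in 83.4% of adenoma, 95.3% of crypt, 98.0% of enterocyte, 97.8% of immune and 99.2% of stromal cells.

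With 2 libraries a group, genotype intervals were wide, and the rare genes Tap1, Tap2 and Nlrc5 rested on few UMIs. Crypt cells were few, gates were rebuilt from markers, and the kits differed in gene tables.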

Other observations

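The library labelled VApcMinL replicate 2 held 591 adenoma cells in which Xist but no Y-linked gene was detected, and 1300 in which a Y-linked gene but not Xist was. B2m measured 53.4 CPM in the Xist set and 49.5 in the Y-linked set. H2-K1 measured 248 and 228, H2-D1 245 and 232, and Tapbp 46.3 and 45.6. The scarcer members were also near each other, with Psmb8 at 9.97 and 10.4, Psmb9 at 4.34 and 5.76, Tap1 at 3.62 and 3.04 and Tap2 at 2.06 and 1.80. Both sets had less B2m than the adenoma cells of any other library, whose lowest value was 128. The sets come from 1 library, and no test was made.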
